A study of Mus musculus with 4 samples.

Results

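Chromatin remodelling and bromodomain genes were examined in embryonic hearts labelled Salv CKO, for a conditional knockout of Salvador (Sav1), a Hippo pathway scaffold on which Mst kinases act on Lats kinases. The members were all genes of the platform's gene table whose symbol begins with Smarc, Ino80 or Arid1 to Arid5, or is Bptf, Pbrm1, or a Chd, Brd, Baz1 or Baz2 name, and 40 of the 16675 genes measured met this rule. Each gene was read from its brightest probe over the 4 arrays. Ino80, Smarca5, Brd9 and Arid2 are not analysed here. The arrays held RNA from 2 pools of Salv CKO hearts and 2 pools of control hearts labelled wild-type. All pools came from whole hearts at embryonic day 9.5 of a C57bl/6 x129 hybrid strain. The labels give neither the number of hearts in a pool nor the Cre line behind the deletion, so they do not say in which cell types Salvador was deleted.

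ATP-dependent remodellers slide, eject or exchange nucleosomes, and they fall into families named after their motor proteins. BAF complexes use Brg1 (Smarca4) or Brm (Smarca2), ISWI complexes use Snf2l or Snf2h with a Baz protein or Bptf, and CHD proteins carry chromodomains. Bromodomains read acetylated lysines on histones, and ARID domains bind DNA. In the embryonic heart, Brg1 and the BAF subunit Baf60c (Smarcd3) are known to act with Gata4, Tbx5 and Nkx2-5 on heart muscle genes.

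Members changed in both directions. In Salv CKO hearts 5 members were higher (Chd1, Smarcd2, Chd4, Bptf and Smarce1) and 5 were lower (Baz2a, Smarcc2, Smarcd3, Arid3b and Smarca4), at a limma p-value adjusted over all genes under 0.05, here named a call. Over all 16675 genes 10.6% were called, with 4.92% higher and 5.70% lower, and 14.0% of the 12402 genes that exceeded background on every array. The members stood mostly in the measurable range, with 37 of 40 above background (an intensity of 16, or log2 4) on all 4 arrays, against 74.4% of all genes. The median log2 difference, Salv CKO minus control, was 0.13 over the 40 members and -0.04 over all genes. Pools of the groups did not overlap for 16 members that were higher and 10 that were lower in Salv CKO. These were 26 of 40, against 54.2% of all genes (25.2% higher and 29.0% lower). Among those above background on all 4 arrays, 25 of 37 members and 7589 of 12402 genes did not overlap.

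Which members passed the test depended on how the arrays were scaled. The 5 lower members were called under each of the 4 scalings, and the 5 higher members after quantile normalisation and with each array divided by its 75th percentile. With each array centred on its median limma called 0 members higher and 5 lower (12 in all at an unadjusted p under 0.05), and with the values as deposited it called 0 higher and 7 lower (13 unadjusted). All genes shifted likewise: limma called 377 higher and 1313 lower with median centring and 229 higher and 3101 lower as deposited, against 821 higher and 951 lower after quantile normalisation. The median gene above background itself moved, to -0.17 with median centring and -0.44 as deposited, against -0.04 after quantile normalisation. The differences of 9 of the 10 called members kept their sign under the 4 scalings, and Smarce1 was at -0.026 as deposited. With any 1 of the 4 pools left out, limma called 0 of 16675 genes (3170 to 3428 at an unadjusted p under 0.05), so these smaller fits cannot tell one call from another. Without a pool, the difference of Baz2a was -2.54 to -2.35 and that of Smarcd3 was -0.85 to -0.70. With 2 pools a group the smallest two-sided p of an exact permutation test on a single gene is 0.333.

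**Figure D1:**
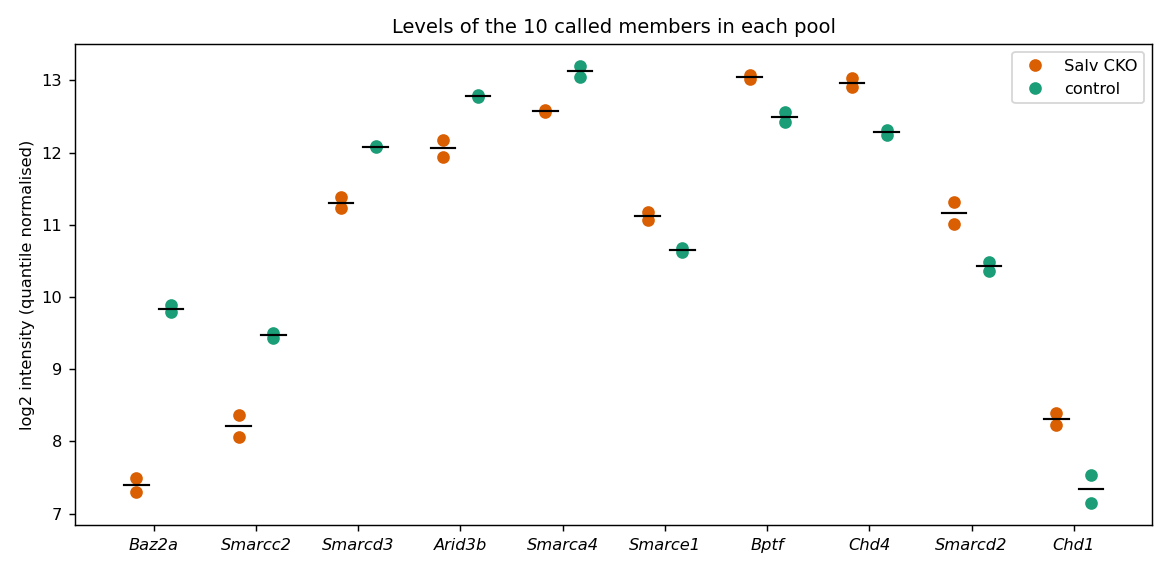
Quantile-normalised log2 intensity (vertical axis) of the 10 called members in each Salv CKO pool (left of each pair) and each control pool (right), with a bar at each group mean. The 2 pools of a group lie closer to each other than to the other group for each gene, from Baz2a with a difference of -2.45 to Chd1 with a difference of 0.98.

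Markers of other cell types moved between the same pools. Markers called higher in Salv CKO were 4 of 11 for neural tissue, 4 of 7 for neural crest cells, 3 of 7 for somites and 4 of 8 for endoderm with liver and yolk sac, and 0 of these were lower. Of the 12 cardiomyocyte markers 5 were lower, as were 4 of 8 endothelial and 3 of 7 primitive red cell markers, and 0 of these were higher. The summed intensity of the neural markers was 9973 to 10810 in Salv CKO and 2214 to 2576 in control pools, that of the crest markers without Crabp1 2186 to 2243 in Salv CKO and 853 to 890 in controls, and that of the somite markers 3642 to 3654 in Salv CKO and 488 to 540 in controls. Crabp1, a retinoic acid binding protein, made up 93.8 to 95.6% of the full crest sum, which was 49520 to 49577 in Salv CKO and 14115 to 14408 in controls. Tcf15 made up 68.2 to 84% of the somite sum. Without Tcf15 that sum was 585 to 643 in Salv CKO and 152 to 155 in controls. Zic1 made up 0.23 to 43.9% of the neural sum. Without Zic1 that sum was 5889 to 6060 in Salv CKO and 2209 to 2520 in controls. For endoderm the sums were 8810 to 8837 in Salv CKO and 3473 to 3594 in controls. These sums were higher in both Salv CKO pools, although single markers of the neural, crest and somite lists had differences below 0. The sum of all 12 cardiomyocyte markers was 380103 to 390013 in Salv CKO and 419620 to 463571 in controls, but 5 of them came within 0.1 (log2) of the arrays' maximum on at least 1 array, so their differences may be cut short. The other 7 summed to 102144 to 107838 in Salv CKO and 124209 to 156442 in controls, and 4 of the 12 had differences above 0. The endothelial sum was 12006 to 12714 in Salv CKO and 20379 to 21327 in controls, and the red cell sum, without 1 marker near the maximum, was 50392 to 52776 in Salv CKO and 74699 to 77615 in controls (113665 to 113956 and 137981 to 139412 with it). The crest factor Foxd3 was at the floor in both control pools and below background in both Salv CKO pools. Of 4 epicardial markers 1 was higher, and Wt1 and Tcf21 were below background on all arrays. All 12 cardiomyocyte markers were above background in every pool. The part of these shifts in the members' results was not tested, and in whole hearts fewer cells of a type and less RNA per cell cannot be told apart. Sav1 was at log2 9.19 and 9.13 in Salv CKO and 9.56 and 9.30 in control pools, a difference of -0.27 ± 0.13 (SE) that limma did not call (adjusted p = 0.266). No label places this probe inside or outside the deletion, so Sav1 does not check the labels.

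The windows before the annotated starts of 3 members are shown because they carry the sharpest contrasts: Baz2a had the largest fall of the members, and Smarcd3 and Smarcd2 encode alternative versions of the same BAF subunit and were called in opposite directions. Each is the 250 bases before the start, on the gene's strand, from RefSeq promoters of GRCm38.p6. They lie at chr10:128092533-128092782 (plus strand) for Baz2a, chr5:24602003-24602252 (minus strand) for Smarcd3 and chr11:106267633-106267882 (minus strand) for Smarcd2. Capitals mark GGAATG, the core letters bound by the Tead partners of Yap, and GGGCGG, the GC box, each on either strand.
Baz2a: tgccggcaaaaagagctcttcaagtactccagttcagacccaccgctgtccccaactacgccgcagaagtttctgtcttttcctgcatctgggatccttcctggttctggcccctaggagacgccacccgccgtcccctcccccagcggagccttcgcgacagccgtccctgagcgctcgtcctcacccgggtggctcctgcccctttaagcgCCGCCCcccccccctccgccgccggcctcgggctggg
Smarcd3: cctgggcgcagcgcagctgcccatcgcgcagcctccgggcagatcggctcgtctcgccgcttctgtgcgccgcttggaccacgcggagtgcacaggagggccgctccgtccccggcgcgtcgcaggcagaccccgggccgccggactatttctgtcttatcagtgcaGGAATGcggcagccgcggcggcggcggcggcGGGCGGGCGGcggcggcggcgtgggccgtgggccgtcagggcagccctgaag
Smarcd2: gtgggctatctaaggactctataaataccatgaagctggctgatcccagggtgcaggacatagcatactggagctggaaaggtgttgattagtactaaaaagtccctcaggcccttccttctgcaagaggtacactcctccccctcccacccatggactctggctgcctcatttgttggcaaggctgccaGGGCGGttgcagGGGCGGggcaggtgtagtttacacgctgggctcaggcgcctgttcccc
The window of Smarcd3 holds 38 CpG pairs and that of Smarcd2 holds 4, against a median of 21 over the 39 windows of the 31 members with an entry and of 6 over all 32851 windows of the table, which covers genes of all kinds. Baz2a has 20. The window of Smarcd3 holds 1 GGAATG, beginning 83 bases before the start, and those of Smarcd2 and Baz2a hold 0. Of the members' windows 4 of 39 hold it (Smarcd3, Baz2b, Brd2 and Chd6), against 12.6% of all windows. The GC box stands in 28 of 39 members' windows and in 32.7% of all windows. The capitals of Smarcd3 include 2 GC boxes that overlap each other, those of Smarcd2 2 and those of Baz2a 1. These matches describe letters and are not evidence of binding.

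Of 13 BAF and PBAF genes 3 were lower and 2 higher in Salv CKO, against 5.70% lower and 4.92% higher over all genes. Among all genes above background on all 4 arrays 14.0% were called. A pair of BAF paralogues was called in opposite directions. Smarca4 (Brg1), the motor, was at log2 12.56 and 12.59 in Salv CKO pools, against 13.05 and 13.20 in control pools. The difference was -0.55 ± 0.08 (SE; limma adjusted p = 0.0211). The groups did not overlap, and the gene has 1 probe on the array. The alternative motor Smarca2 (Brm) was near background, at 5.25 and 4.02 in Salv CKO and 3.78 and 4.18 in control pools, and its pools overlapped (0.65 ± 0.61, adjusted p = 0.560).

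Smarcd3 (Baf60c), the version of the Baf60 subunit known for its role in heart muscle, was at 11.23 and 11.38 in Salv CKO, against 12.07 and 12.09 in controls. It was lower by a factor of 1.71 (-0.77 ± 0.08, limma adjusted p = 0.0119). Its paralogue Smarcd2 (Baf60b) went the other way, at 11.32 and 11.02 in Salv CKO, against 10.49 and 10.35 in controls (0.75 ± 0.13, adjusted p = 0.0318). Pools of the groups did not overlap for either gene. Smarcd1 (Baf60a) was dim, at 4.64 and 4.98 in Salv CKO and 4.73 and 5.23 in controls, with no call (-0.17 ± 0.42, adjusted p = 0.844).

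Smarcc2 (Baf170), a core scaffold subunit, had the second-largest fall of the members. It was at 8.06 and 8.37 in Salv CKO, against 9.50 and 9.44 in controls, 2.39-fold lower (-1.26 ± 0.15, limma adjusted p = 0.0140). Its paralogue Smarcc1 (Baf155) was not called: its brightest probe gave 9.28 and 9.23 in Salv CKO and 9.09 in both controls (0.17 ± 0.10, adjusted p = 0.368). The other Smarcc1 probe gave 0.64 ± 0.15 (limma adjusted p over all named probes = 0.0706). Both probes of Smarcc1 were thus above 0, while the 1 probe of Smarcc2 was below.

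Smarce1 (Baf57), a DNA-binding core subunit, was at 11.07 and 11.18 in Salv CKO, against 10.68 and 10.62 in controls (0.47 ± 0.08, limma adjusted p = 0.0320). With the values as deposited its difference was -0.026 (adjusted p = 0.915), where the median gene was at -0.44. The core subunit Smarcb1 (Snf5) was at 13.23 and 13.22 in Salv CKO and 13.21 and 13.40 in controls, with overlapping pools (-0.08 ± 0.08, adjusted p = 0.620). Smarcb1 was therefore not distinguishable from 0 at this spread.

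The targeting subunits did not pass the test. Arid1a (Baf250a), a DNA-binding subunit of BAF, was at 13.63 and 13.67 in Salv CKO and 13.29 and 13.40 in controls (0.30 ± 0.07, limma adjusted p = 0.0648). Its other probe gave 0.52 ± 0.12 (adjusted p over all named probes = 0.0673), and the mean of both probes was called (0.41 ± 0.07, adjusted p = 0.0449). Arid1b, the alternative to Arid1a, lay on the other side of 0, at 6.62 and 6.55 in Salv CKO and 6.91 and 6.95 in controls (-0.34 ± 0.21, adjusted p = 0.375). The PBAF subunit Pbrm1 (Baf180), which carries several bromodomains, gave 0.30 ± 0.09 (adjusted p = 0.113) and, on its other probes, 0.05 and 0.40. Brd7, a bromodomain subunit of PBAF, differed by 0.09 ± 0.07 (adjusted p = 0.500).

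Of the 6 ISWI genes 1 was lower and 1 higher, against 5.70% lower and 4.92% higher over all genes. Baz2a (Tip5), the partner that with Snf2h forms the complex silencing ribosomal RNA genes, was at an intensity of 157 and 179.8 in Salv CKO, against 944 and 887.8 in controls. On the log2 scale these were 7.29 and 7.49 in Salv CKO and 9.88 and 9.79 in controls, a 5.45-fold fall (-2.45 ± 0.13, limma adjusted p = 0.00640). By p it ranked 24 of 16675 genes, and its difference ranged from -2.86 to -2.35 over the 13 alternatives. Baz2a has 1 probe on the array, so the fall was not checked on another probe.

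Bptf, the largest subunit of the NURF complex and a reader of methylated histone H3, was at 13.08 and 13.01 in Salv CKO, against 12.56 and 12.43 in controls (0.55 ± 0.08, limma adjusted p = 0.0196). Its other probe moved further, at 9.09 and 9.11 in Salv CKO and 7.99 and 8.04 in controls (1.09 ± 0.11, adjusted p over all named probes = 0.0117). Bptf was the only member called on more than 1 probe, but 8 of the 10 called members have only 1 probe. Baz2b, the relative of Baz2a, was at 9.19 and 8.82 in Salv CKO and 8.18 and 8.49 in controls and was not called (0.67 ± 0.19, adjusted p = 0.0985). The motor Smarca1 (Snf2l) was at 9.03 and 9.01 in Salv CKO and 9.02 and 8.88 in controls (0.07 ± 0.11, adjusted p = 0.738). Baz1a (Acf1) and Baz1b (Wstf), partners of Snf2h, gave 0.01 and 0.20 with overlapping pools.

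Of the 9 CHD remodellers 2 were higher and 0 lower, against 4.92% higher and 5.70% lower over all genes. Chd4 (Mi-2 beta), the motor of the NuRD corepressor complex, was at 13.03 and 12.91 in Salv CKO, against 12.32 and 12.24 in controls. It was 1.61-fold higher (0.69 ± 0.08, limma adjusted p = 0.0129), a second probe gave 0.62 ± 0.28 with no call, and the third, below background on all arrays, gave -0.90 ± 1.48. With the mean of its 3 probes Chd4 was at 0.14 and not called (adjusted p = 0.902). Chd1, which binds histone H3 methylated at active promoters, was at 8.40 and 8.23 in Salv CKO, against 7.53 and 7.15 in controls (0.98 ± 0.20, adjusted p = 0.0448). Chd1 had the highest adjusted p of the 10 called members. Chd7, the gene mutated in CHARGE syndrome, which includes heart defects, was at 11.44 and 11.67 in Salv CKO and 11.40 and 11.52 in controls (0.10 ± 0.11, adjusted p = 0.626), and its pools overlapped.

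The other CHD genes had no call, with adjusted p of 0.195 to 0.930 over the 7 uncalled members. Chd5, a mainly neural Mi-2 relative, was at 5.57 and 5.69 in Salv CKO and 6.20 and 6.51 in controls, and its brightest probe (-0.73 ± 0.29) stood against 1.34 and 2.24 on 2 probes that were not above background on all arrays. Chd8 gave -0.14, Chd9 -0.05, Chd2 0.04 and Chd3 0.16. Chd6 was above background on 1 of 4 arrays, so that its value of 1.10 ± 0.92 has no firm level behind it.

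**Figure D2:**
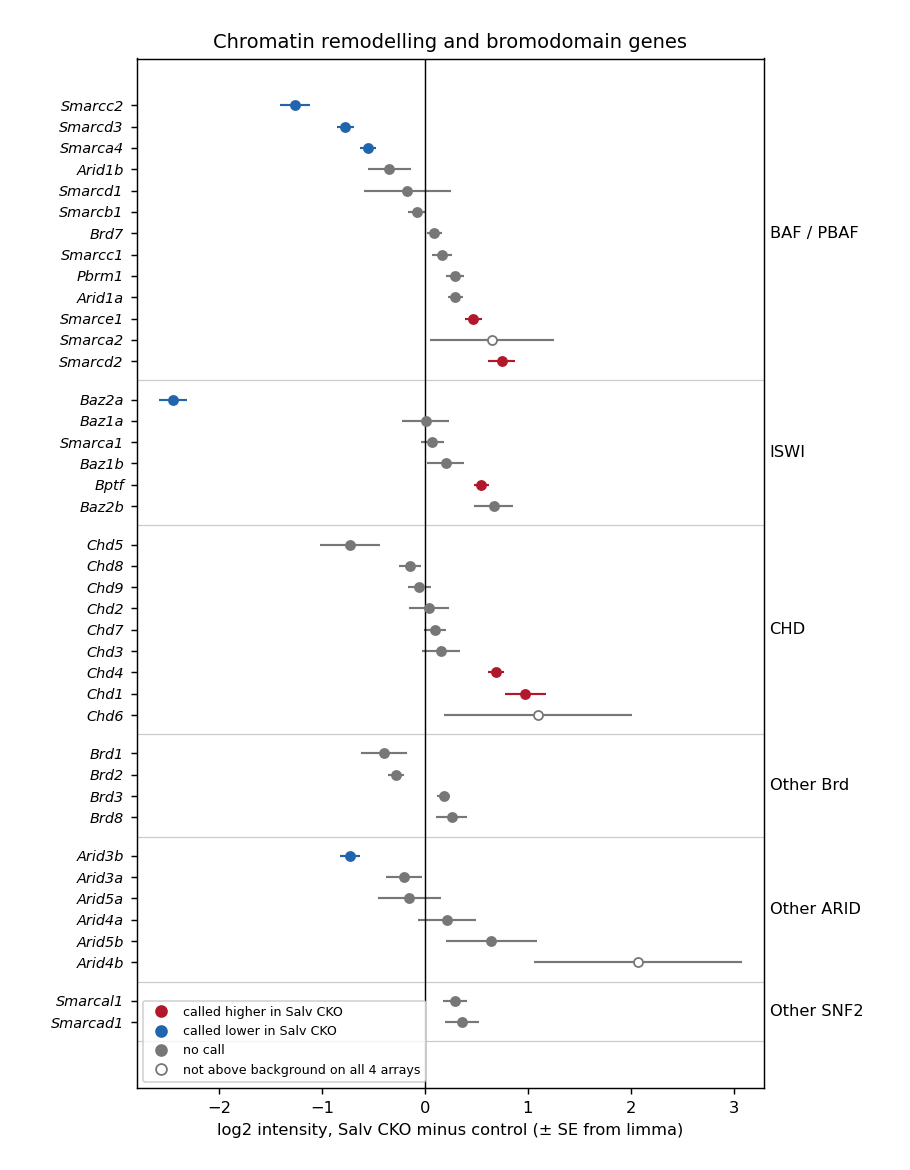
Log2 difference, Salv CKO minus control, with the limma standard error (horizontal axis) for the 40 members, grouped by family. Red points are the 5 members called higher, blue points the 5 called lower and grey points the 30 without a call, and the open points (Smarca2, Chd6 and Arid4b) were not above background on all 4 arrays.

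Of the 4 Brd genes outside BAF none was called (limma adjusted p = 0.0966 to 0.355, with 2 at an unadjusted p under 0.05), although the pools of the groups did not overlap for any of them, as for 54.2% of all genes. Brd2, a BET protein that binds acetylated histone H4, was at 13.07 and 12.92 in Salv CKO and 13.26 and 13.27 in controls (-0.28 ± 0.08, adjusted p = 0.0966). Its other probe pointed the other way (0.42 ± 0.11). The BET protein Brd3, known to bind acetylated Gata1, was at 14.18 and 14.24 in Salv CKO and 13.99 and 14.05 in controls (0.18 ± 0.07, adjusted p = 0.158), and its other probe gave -0.51 ± 0.16. With probes of opposite sign, neither gene has a settled direction. Brd1 and Brd8, subunits of histone acetyltransferase complexes, gave -0.39 ± 0.22 and 0.26 ± 0.15.

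**Figure D3:**
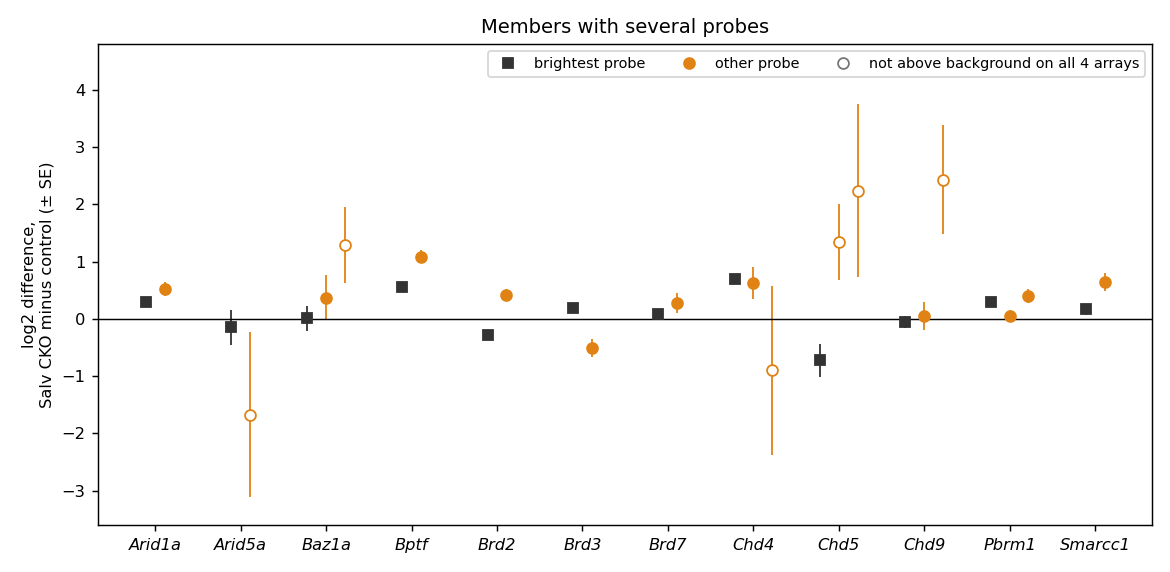
Log2 difference, Salv CKO minus control, with its standard error (vertical axis) for each probe of the 12 members with several probes, in a fit over all named probes. Squares are the brightest probes, circles the others and open symbols probes not above background on all 4 arrays; of the 10 members with at least 2 probes above background, Brd2, Brd3 and Chd9 had probes of opposite sign.

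Of 6 ARID genes outside BAF 1 was lower, against 5.70% of all genes. Arid3b, a DNA-binding protein known from mouse knockouts to be needed in the heart and neural crest, was at 12.18 and 11.94 in Salv CKO, against 12.80 and 12.77 in controls, 1.65-fold lower (-0.72 ± 0.10, limma adjusted p = 0.0188). Its relative Arid3a gave -0.20 ± 0.18 (adjusted p = 0.533). Arid4a, an Rb-binding protein of a histone deacetylase complex, gave 0.22 and Arid5a gave -0.15, both without a call. Arid5b was dim, at 4.82 and 5.02 in Salv CKO and 4.04 and 4.50 in controls. It was not called (0.65 ± 0.44, limma adjusted p = 0.429). Arid4b was below background on all arrays, with both controls at the floor, so no fold is given. Smarcad1 and Smarcal1, SNF2 proteins known for work at replicated or damaged DNA, lay above 0 with pools that did not overlap but were not called (0.36 ± 0.17 and 0.29 ± 0.11, adjusted p = 0.249 and 0.189).

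**Figure D4:**
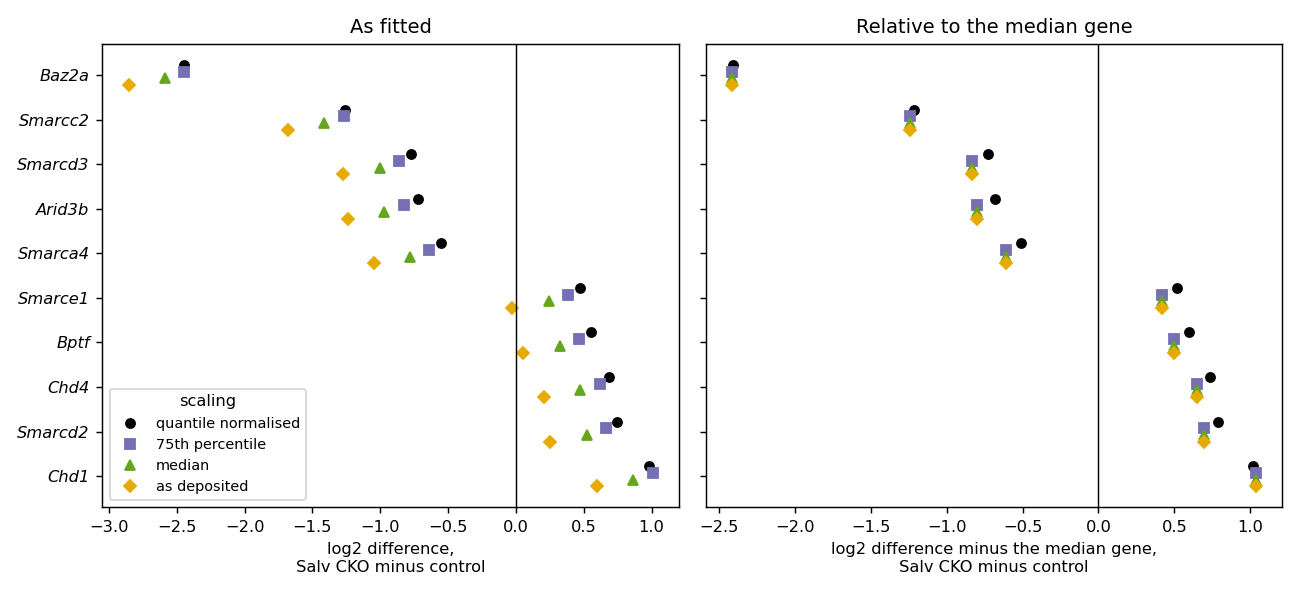
Log2 differences, Salv CKO minus control, of the 10 called members under 4 scalings of the arrays, as fitted (left panel) and after the median difference of measurable genes was taken off (right panel). As fitted, Smarce1 changes sign with the values as deposited (-0.026); relative to the median gene, 3 of the scalings coincide by construction, and Smarce1 lies at 0.42 with these and at 0.52 after quantile normalisation.

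The partners of these proteins were read from lists of other subunits and relatives. Of 78 such genes 6 were higher and 3 lower, a share to be read against the 10.6% of all genes called. Actl6a (Baf53a), the actin-like BAF subunit of dividing progenitors, was at 14.62 and 14.69 in Salv CKO, against 14.03 and 14.28 in controls (0.50 ± 0.10, limma adjusted p = 0.0450), and was the only one of 12 other BAF genes called. Of 6 further ISWI partners 3 were higher and 0 lower. These were Rbbp4, a histone chaperone shared by NURF and NuRD (1.29 ± 0.10), Rsf1, the partner of Snf2h in remodelling and spacing (0.54 ± 0.08), and Pole3, a histone-fold subunit (0.40 ± 0.08), the last named after its value was seen. Rbbp4 was at 13.62 and 13.86 in Salv CKO, against 12.48 and 12.42 in controls (adjusted p = 0.00762).

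Among 8 further NuRD genes Mta2 was lower (-0.37 ± 0.07, limma adjusted p = 0.0328) and none was higher. This list leaves out NuRD genes counted elsewhere, among them Rbbp4 and Rbbp7 with the ISWI partners and Chd4 and Chd3 with the members. Rbbp4 and Chd4 were called higher (1.29 ± 0.10 and 0.69 ± 0.08). Rbbp7, near the arrays' maximum, and Chd3 were not called (-0.03 ± 0.07 and 0.16 ± 0.19, limma adjusted p = 0.834 and 0.655). Of 20 other INO80, SRCAP and TIP60 genes Ruvbl1, an AAA ATPase shared by these complexes, was the 1 called. It was at 11.18 and 11.21 in Salv CKO, against 10.04 and 9.89 in controls (1.23 ± 0.09, adjusted p = 0.00726). Of 18 other bromodomain genes 1 was higher, the Smad4 regulator Trim33 (0.46 ± 0.09), and 1 lower, the histone acetyltransferase Crebbp, which was at 9.10 and 9.13 in Salv CKO and 10.43 and 10.53 in controls (-1.36 ± 0.09, adjusted p = 0.00717). Of 4 other ARID genes the histone demethylase Jarid1c (Kdm5c) was lower (-0.49 ± 0.09), and of 10 other SNF2 genes none was called.

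Of 13 early heart genes, listed because BAF acts on several of them, 6 fell and none was called higher, against 5.70% of all genes lower. Their median was -0.67, and 3 of the 7 without a call had differences above 0. Nkx2-5 was at 9.35 and 9.66 in Salv CKO, against 11.37 and 10.85 in controls (-1.61 ± 0.21, limma adjusted p = 0.0168). Gata4 and the gap junction gene Gja5 gave -1.19 ± 0.08 and -1.36 ± 0.13, and the ventricular factor Irx4 gave -1.22 ± 0.09. Of the 12 cardiomyocyte markers 5 were called lower, among them Nkx2-5 and Myh6, which are also among the 13 early heart genes. The part of these markers in the fall of Smarcd3 and Smarca4 was not tested.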

How the data were processed

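Total RNA of pooled hearts was amplified, labelled with Cy5 and hybridised to 1 array per pool, per the labels' protocols. The authors deposited linear intensities for 29922 probes. For the scanner, background method and scaling: not given in the sources used here. Of the deposited intensities 3.37 to 5.99% per array lay below 0, so a background had been subtracted. The columns were not on a common distribution, with 75th percentiles of 361 and 373 (Salv CKO) and 445 and 536 (control).

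Quantile normalisation (limma 3.58.1, R 4.3.3) was followed by a floor at an intensity of 1 and the log2 scale. An intensity over 16 counted as above background, against a noise SD of 4.36 to 6.28 read from values below 0, and 0 members were near saturation. The platform's gene table of 2013 names 1 gene for 21020 probes. Differences and their SE come from limma (lmFit, eBayes with an intensity trend), two-sided, Benjamini-Hochberg adjusted over 16675 genes, or over all named probes for single probes, and n = 2 pools per group. The labels call the pools biological replicates. The p-values and SE do not rest on the spread between a gene's own pools alone. In limma that spread is drawn towards the spread of genes of similar intensity. Alternatives changed the scaling, floor, filter, probe rule, variance model, left-out pool and replicate block. The procedure was also run on simulated arrays with normal noise at limma's own variances. That run takes the variance model as given and so cannot test it.

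The members and lists were chosen with earlier results of these data known. Named are all called members, the 2 of lowest p in families without a call, and a set of motor and core subunits; all other members are given for completeness. Of the partner lists, up to 2 called genes of largest difference each are named, with Gja5, Nkx2-5 and Gata4. The number of arrays limits the precision.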

Additional observations from a re-analysis of the deposited data

How the results depend on the processing

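Each of the 10 called members kept its direction under all 13 alternatives, except Smarce1 with the values as deposited (-0.026). All 10 calls remained with each array divided by its 75th percentile, among genes above 16 on all 4 arrays and with the replicate block, and 8 with the mean of all probes, where Chd4 (0.14, adjusted p = 0.902) and Chd1 (adjusted p = 0.0520) were lost. Members called numbered 10, and 5 with median centring, 1 with a floor of 16, 1 with a floor of 64 and 0 without an intensity trend (limma; 13 at an unadjusted p under 0.05). Among genes above 16 on all 4 arrays 12 members were called, with Arid1a and Baz2b gained as higher (limma adjusted p = 0.0307 and 0.0455). With the values as deposited 7 were called, with Brd2 and Chd8 gained as lower (adjusted p = 0.0140 and 0.0313). Over all genes 1772 were called, and 3330 with the values as deposited, 481 and 491 with floors of 16 and 64, 2676 among genes above 16 on all arrays and 0 without a trend (3578 at an unadjusted p under 0.05). Of the 91 partner and early heart genes 15 were called, and 31 as deposited, 6 and 5 with floors of 16 and 64, 27 among genes above 16, 9 with the mean of probes and 0 without a trend (28 unadjusted). With 1 pool left out, calls ranged from 0 to 0 for all 3 counts, with 10 to 14 members, 3170 to 3428 genes and 24 to 25 partner and early heart genes at an unadjusted p under 0.05; such a fit assumes that the lone pool varies like the other group. A filter changes which genes are tested, and a floor gives many genes identical values; otherwise the cause was not tested. Pools of the same number are not stated to be paired, and their deviations correlated at r = 0.17 over 12402 genes; with the replicate block 2211 genes, 10 members and 20 partner and early heart genes were called. Dim members (Smarca2, Chd6, Arid4b, Arid5b, Smarcd1) are limited by signal over background.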

Other observations

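Baz2a and Smarcc2, the members with the largest falls, are near neighbours on mouse chromosome 10 in the RefSeq table of GRCm38.p6. This was seen after their values were known. Between them the arrays measured 14 named genes, of which 2 were called lower and 0 higher (limma, adjusted over all genes; 10.6% of all genes were called). Rbms2, next to Baz2a, was at 13.99 and 14.10 in Salv CKO, against 14.79 and 14.82 in controls (-0.76 ± 0.07, adjusted p = 0.0102), and Spryd4 gave -0.38 ± 0.07 (adjusted p = 0.0383). The median of the 14 genes was -0.20, with a range of -0.76 to 0.59.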
